A study of Homo sapiens with 8 samples.

Results

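The mRNA levels of 42 genes that carry cells through mitosis were examined in HCT116, a human colorectal cancer line. The genes were taken by symbol from a fixed list of mitotic cyclins, kinases, checkpoint proteins, kinesins, centromere proteins and cytokinesis factors. The list was chosen with earlier results of these data known. All 42 were found in both deposited count tables, among the 42125 genes of the TFAP2C experiment and the 23393 genes of the SAE2 experiment, and all 42 passed the expression filter in both. SAE2 is another name of UBA2, a subunit of the enzyme that activates SUMO, a small protein that is attached to other proteins. TFAP2C is a transcription factor of the AP-2 family.

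All 8 libraries came from HCT116 cells that stably carry a Tet-On shRNA against SAE2, including the cells that received siRNA. The 4 groups, of 2 replicates each, were control siRNA for 48 hrs, TFAP2C siRNA for 48 hrs, control with DMSO for 5 days and SAE2 kd with 1 μg/mL of doxycycline (Dox) for 5 days. The controls of the SAE2 experiment received no Dox, so Dox and the shRNA it induces cannot be told apart. All groups stem from the same stable line, and whether it is a clone is not given in the sources used here. The study concerned SUMOylation and TFAP2C at enhancers, and the comparisons below give the mRNA levels of the mitotic genes with each treatment.

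Mitosis is driven by CDK1 bound to cyclin B. PLK1 and the Aurora kinases build the spindle, kinesins move along its microtubules, and kinetochores on the centromeres tie chromosomes to them. The spindle checkpoint holds back the ubiquitin ligase APC/C until every chromosome is attached, after which securin and cyclin B are destroyed, the sisters part and the cell divides. Most of these genes are transcribed in G2 and M phase. Their promoters are known for the CHR element, which the MuvB complex binds, and for CCAAT boxes, which NF-Y binds, and FOXM1 and MYBL2 join MuvB at them. In a cycling line the mRNA levels thus follow both how many cells are in these phases and how strongly each gene is transcribed.

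Promoters of 37 of the 42 genes were found in the RefSeq table (GRCh38.p14), each as a window of 250 bases before and 50 bases after an annotated start. AURKA, TTK, BIRC5, TPX2 and FOXM1 had no entry. The windows were searched on both strands for the CHR letters TTTGAA and TTCGAA and for CCAAT. Other spellings of CHR were not searched for, so a gene without these letters is not shown to lack the element. The last 120 bases before the start are shown for 8 genes, read 5′ to 3′ on the strand of the gene, with each match in capitals. A match on the other strand reads TTCAAA or ATTGG, and TTCGAA reads the same on both strands. The first 4 genes had lower mRNA in the libraries labelled SAE2 kd and hold CCAAT but neither TTTGAA nor TTCGAA in the stretch shown. BUB1 holds the CHR letters just past it, at position 2 after the start.
KIF20A (chr5:138178992-138179111, + strand): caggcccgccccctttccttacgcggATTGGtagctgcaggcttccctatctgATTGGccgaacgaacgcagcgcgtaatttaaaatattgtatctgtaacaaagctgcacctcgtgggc
PTTG1 (chr5:160421735-160421854, + strand): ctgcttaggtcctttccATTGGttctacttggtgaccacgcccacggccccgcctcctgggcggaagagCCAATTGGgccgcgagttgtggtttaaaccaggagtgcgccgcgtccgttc
BUB1 (chr2:110678064-110678183, - strand): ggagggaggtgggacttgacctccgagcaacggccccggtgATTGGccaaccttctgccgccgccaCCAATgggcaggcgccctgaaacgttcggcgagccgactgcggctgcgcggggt
CCNB1 (chr5:69167030-69167149, + strand): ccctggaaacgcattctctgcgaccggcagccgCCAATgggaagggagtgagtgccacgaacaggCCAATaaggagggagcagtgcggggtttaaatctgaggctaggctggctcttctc
KIF11 and MKI67 were lower in the same libraries and hold both motifs.
KIF11 (chr10:92593010-92593129, + strand): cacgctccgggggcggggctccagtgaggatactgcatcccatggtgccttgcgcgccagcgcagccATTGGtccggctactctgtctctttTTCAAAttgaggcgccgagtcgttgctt
MKI67 (chr10:128126424-128126543, - strand): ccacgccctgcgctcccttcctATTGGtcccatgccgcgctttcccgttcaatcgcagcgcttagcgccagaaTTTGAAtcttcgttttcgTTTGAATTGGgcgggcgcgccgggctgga
PLK1 and CCNB2 hold both motifs too, with the CHR letters starting 29 bases before the start as in MKI67, and did not pass the test in either experiment.
PLK1 (chr16:23678769-23678888, + strand): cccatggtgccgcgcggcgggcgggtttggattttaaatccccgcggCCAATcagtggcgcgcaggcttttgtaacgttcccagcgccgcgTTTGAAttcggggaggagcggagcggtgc
CCNB2 (chr15:59105026-59105145, + strand): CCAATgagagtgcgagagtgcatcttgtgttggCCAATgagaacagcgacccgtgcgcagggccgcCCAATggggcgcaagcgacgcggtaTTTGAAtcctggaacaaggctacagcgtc

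Matches may overlap. In PTTG1 the matches at -51 and -48 share letters, and in MKI67 the CHR letters at -29 and the CCAAT letters at -24 share a base, where the base before the start is -1. The CHR letters stood somewhere in the windows of 30 of 37 genes (81.1%), against 19.5% of all 27305 genes with a window. CCAAT stood in 31 of 37 (83.8%), against 39.7% of all genes, and both motifs in 26 of 37 (70.3%), against 9.02%. For comparison, 3 of 28 DNA replication genes (10.7%) held the CHR letters. They were densest close to the start. Between positions -30 and -11 they began in 12 of the 47 windows of the mitotic genes (25.5%), against 1.09% of all 35116 windows. CCAAT was densest further upstream, between -70 and -51, in 17 of 47 windows (36.2%), against 6.16%. Of the genes that were lower in the libraries labelled SAE2 kd, 8 of 12 with a window held the CHR letters, and of those that did not pass, 22 of 25 did. These counts cover only the spellings searched. The letters describe the windows, and binding was not measured here.

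**Figure D1:**
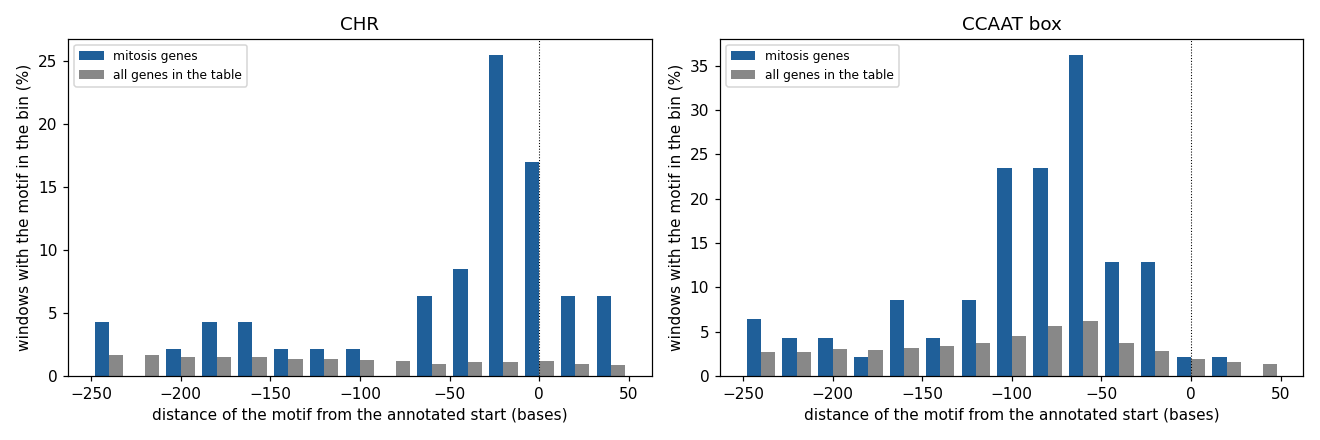
Share of RefSeq promoter windows (percent, y axis) with a CHR match (left) or a CCAAT match (right) that begins in each bin of 20 bases, by distance from the annotated start (x axis, bases). Blue bars are the 47 windows of 37 mitotic genes, grey bars all 35116 windows. The blue bars peak at 25.5% just before the start for CHR and at 36.2% further upstream for CCAAT, while the grey bars stay below 6.2%.

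Library totals lay between 18213739 and 24465109 counts, and the mitotic gene with the fewest counts still had 137 in a library. Every one of the 5 colon epithelial markers was tested in both experiments, with a summed level between 2132 and 3380 CPM (counts scaled to a common library size). The 9 markers of leukocytes, fibroblasts and endothelium summed to 45.2 to 50.0 CPM in the siRNA libraries and 15.4 to 23.3 CPM in the others. Nearly all of this was COL1A1, and 3 and 4 of the 9 were at 0 in every library. TFAP2C mRNA was 18.9 and 20.5 CPM with control siRNA and 3.46 and 4.30 CPM with TFAP2C siRNA. UBA2 mRNA was 162 and 146 CPM in the control and 147 and 153 CPM in the libraries labelled SAE2 kd, a log2 fold change of -0.04 ± 0.056 (SE). The mRNA thus did not show the knockdown that the label names, and the groups overlapped.

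In the libraries labelled SAE2 kd, 13 of the 42 mitotic genes were lower than in the control and 0 were higher, by the quasi-likelihood test of edgeR at a Benjamini-Hochberg adjusted p under 0.05. That is 31.0% of the genes, where 4.47% of all 13381 genes tested were lower and 5.52% were higher. The list was chosen with earlier results of these data known, so this share is not an independent test. The changes were small. The 13 genes fell by 9.28% to 17.6%, with the largest falls in PTTG1, NEK2 and KIF20A. Of all 42 genes, 39 had a log2 fold change below 0, against 50.1% of all genes. Their median was -0.13, or -8.51%, against -0.00042 over all genes. In 31 of the 42 both libraries labelled SAE2 kd were below both controls, against 25.8% of all genes, and in 0 were both above. The 2 controls also differed from each other in these genes. Control replicate 1 minus replicate 2 had a median of 0.056 on the log2 scale, against -0.0014 over all genes. It was below 0 in 9 of the 42. Between the 2 libraries labelled SAE2 kd the median was -0.013, with 24 below 0. At an unadjusted p under 0.05, 22 genes were lower and 0 higher, against 11% and 11.7% of all genes. In bulk RNA, fewer cells in mitosis and less mRNA per mitotic cell cannot be told apart.

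These calls were sensitive to which libraries entered. Without control replicate 1 only CCNB1 and PTTG1 passed and the median rose to -0.09, while 7.71% of all genes passed in either direction. Without SAE2 kd replicate 1, 7 genes passed, 5 of them among the 13, against 7.38% of all genes. Leaving out control replicate 2 gave 11 genes, of which 9 were among the 13, against 6.16% of all genes. Leaving out SAE2 kd replicate 2 gave 10, all of them among the 13, against 9.39%. The Wald test of DESeq2 called 5 as lower (AURKA, BUB1, CCNB1, KIF20A and PTTG1) and 0 as higher, against 1.6% and 3.19% of all genes. A fit of all 8 libraries called PTTG1 alone, against 5.28% of all genes. PTTG1 was the one mitotic gene that passed under all 12 alternatives, with log2 fold changes from -0.31 to -0.26.

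**Figure D2:**
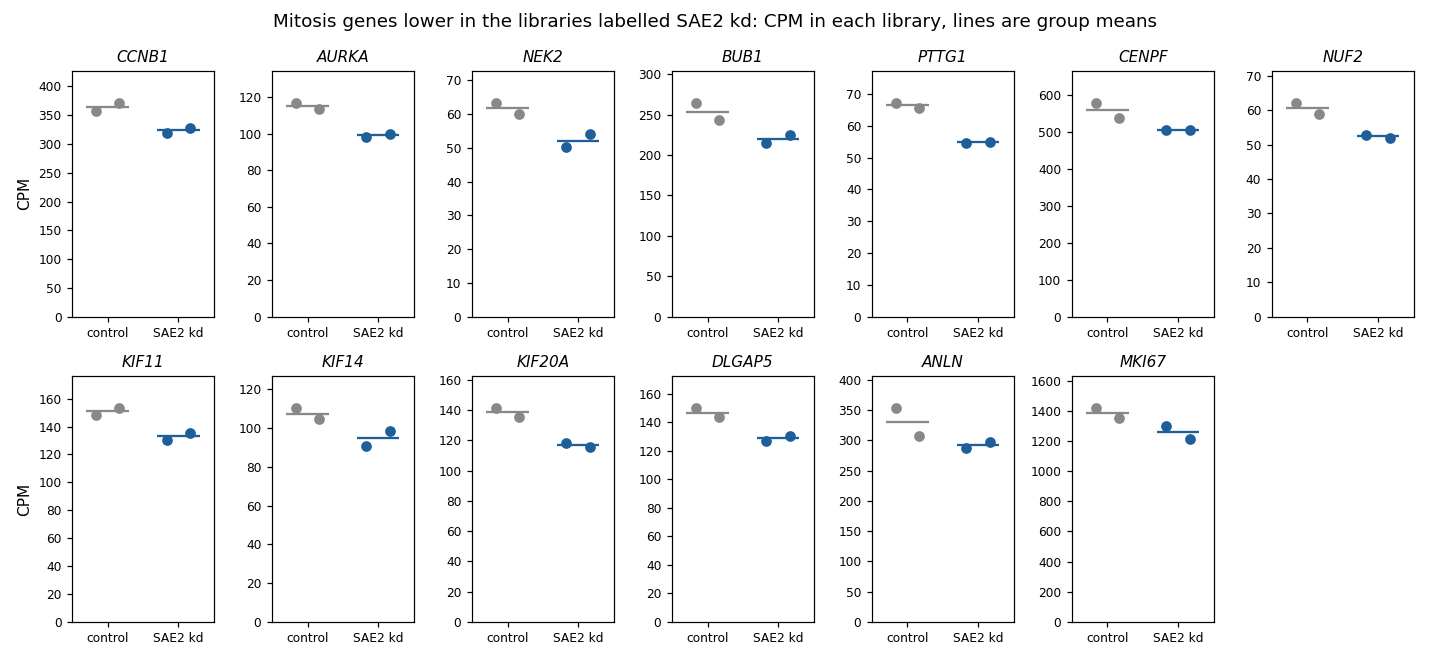
CPM (y axis, from 0) of the 13 mitotic genes with an adjusted p under 0.05, in each of the 2 control libraries (grey) and the 2 libraries labelled SAE2 kd (blue), with lines at the group means. In each panel both blue points lie below both grey points, by 9.28% to 17.6% between the means.

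**Figure D3:**
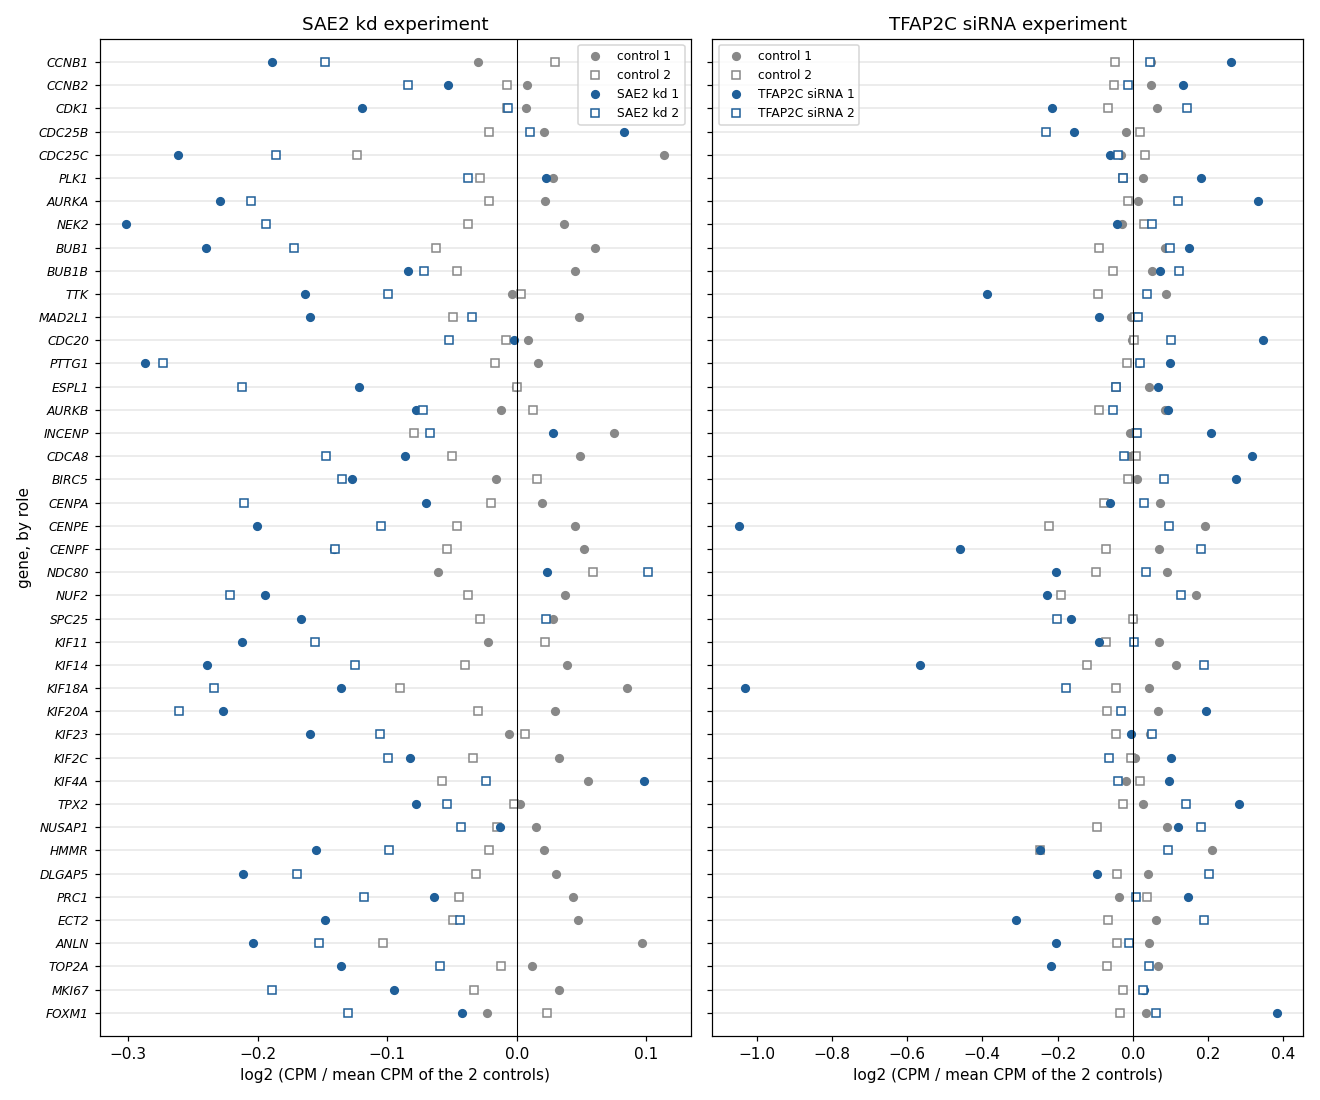
Level of each of the 42 mitotic genes (y axis, in order of role) in each library, as log2 of CPM over the mean CPM of the 2 controls (x axis), for the SAE2 experiment (left) and the TFAP2C experiment (right, wider axis). Grey marks are controls, blue marks the other group, filled circles replicate 1 and open squares replicate 2. On the left most blue marks lie left of the grey ones, and on the right the filled blue circles of TFAP2C siRNA replicate 1 spread furthest to both sides.

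Each role group below holds few genes and none was tested as a set. Beside their counts, 4.47% of all genes were lower and 50.1% were below 0. Among cyclins, CDK1 and the CDC25 phosphatases, which start mitosis, 1 of 5 genes was lower. CCNB1, the cyclin B that activates CDK1, was at 357 and 372 CPM in the control and 319 and 329 CPM in the libraries labelled SAE2 kd. The log2 fold change was -0.17 ± 0.046 (SE; edgeR adjusted p = 0.0151), and the groups did not overlap. CCNB2, the other mitotic cyclin B, had a log2 fold change of -0.07 and CDK1 itself of -0.06. CDC25C, a phosphatase that removes inhibitory phosphates from CDK1, had the lowest value of the group at -0.22, yet its adjusted p was 0.154 in edgeR. It had 345 to 465 counts a library, and its 2 controls differed by 0.24 on the log2 scale. CDC25B, a phosphatase of the same family, was 1 of the 3 mitotic genes above 0, at 0.05.

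Of the mitotic kinases, 2 of 3 were lower. AURKA, which matures centrosomes and builds the spindle poles, was at 117 and 114 CPM in the control and 98.3 and 100.0 CPM in the libraries labelled SAE2 kd, a fall of 13.9%. Its log2 fold change was -0.22 ± 0.056 (SE; edgeR adjusted p = 0.0101). NEK2, which separates the centrosomes, was at 63.4 and 60.2 CPM against 50.1 and 54.0 CPM, with a log2 fold change of -0.25 ± 0.067 (SE; edgeR adjusted p = 0.0144). Neither gene overlapped between groups. PLK1, which acts at nearly every step of mitosis, did overlap, at 220 and 212 CPM in the control and 219 and 210 CPM. Its log2 fold change was -0.01, with a 95% confidence interval from -0.11 to 0.09.

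In the group of spindle checkpoint, APC/C activation and sister separation, 2 of 7 genes were lower and all 7 were below 0. PTTG1 encodes securin, which keeps separase inactive until anaphase. It was at 67.3 and 65.8 CPM in the control and 54.5 and 55.1 CPM in the libraries labelled SAE2 kd. The fall of 17.6%, or -0.28 ± 0.064 (SE) on the log2 scale, was the largest of the 42 (edgeR adjusted p = 0.0031), and the replicates of each group lay close together. BUB1, a checkpoint kinase at the kinetochore, was at 264 and 243 CPM against 215 and 225 CPM, with a log2 fold change of -0.21 ± 0.051 (SE; edgeR adjusted p = 0.0071). The controls of BUB1 differed more from each other than those of PTTG1. ESPL1, the separase that PTTG1 restrains, stood just outside the threshold at -0.17 (edgeR adjusted p = 0.0547). TTK, the kinase that starts the checkpoint signal, was at -0.13, and BUB1B and MAD2L1, which take part in inhibiting CDC20, were at -0.08 and -0.09. CDC20, the activator of APC/C, was at -0.03 and overlapped between groups.

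The chromosomal passenger complex corrects faulty attachments and guides cytokinesis, and 0 of its 4 genes passed the test, with all 4 below 0. BIRC5 (survivin) was at 251 and 256 CPM in the control and 232 and 231 CPM in the libraries labelled SAE2 kd, so that the groups did not overlap. Its log2 fold change was -0.13 ± 0.048 (SE; edgeR adjusted p = 0.0828). CDCA8 (borealin) was at -0.12, the kinase AURKB at -0.08 and the scaffold INCENP at -0.02.

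At centromeres and kinetochores, 2 of 6 genes were lower. CENPF, a large protein of the outer kinetochore, was at 578 and 537 CPM in the control and at 505.6 CPM in both libraries labelled SAE2 kd. It had a log2 fold change of -0.14 ± 0.045 (SE; edgeR adjusted p = 0.0398). NUF2, a subunit of the NDC80 complex that grips microtubules, was at 62.2 and 59.0 CPM against 53.0 and 52.0 CPM, with a log2 fold change of -0.21 ± 0.066 (SE; edgeR adjusted p = 0.0385). Its partners in the complex did not pass. NDC80 was above 0 at 0.06 and SPC25 was at -0.07, and both overlapped between groups. CENPE, a kinesin of the kinetochore, was at -0.15, and CENPA, the histone H3 variant that marks centromeres, at -0.14.

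Of the kinesins, 3 of 7 were lower and 6 were below 0. KIF20A, which brings the passenger complex to the midzone, was at 141 and 136 CPM in the control and 118 and 116 CPM in the libraries labelled SAE2 kd. With a log2 fold change of -0.24 ± 0.055 (SE), it had the lowest edgeR adjusted p of the 42 genes, 0.0027. It overlaps CDC23 on the opposite strand, and the strand setting of the counting is not stated. In the same table CDC25C overlaps FAM53C, ANLN overlaps KIAA0895, TOP2A overlaps RARA and FOXM1 overlaps RHNO1 on the opposite strand, and BUB1B overlaps PAK6 on the same strand. FAM53C had more counts than CDC25C over the 4 libraries, 5548 against 1626, while KIAA0895 had 1366 against 23755 for ANLN. KIF11, which pushes the spindle poles apart, was at 149 and 153 CPM against 130 and 135 CPM, a log2 fold change of -0.18 ± 0.054 (SE; edgeR adjusted p = 0.0237). KIF14, a kinesin of the midbody, was at 110 and 104 CPM against 90.9 and 98.4 CPM, a log2 fold change of -0.18 ± 0.059 (SE; edgeR adjusted p = 0.0486). These sets did not overlap, and KIF14 lay closest to the threshold from inside. KIF18A, which dampens chromosome movements, was just outside it at -0.18 (edgeR adjusted p = 0.0684). KIF23 was at -0.13, KIF2C at -0.09 and the chromosome-bound KIF4A at 0.04.

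Among genes of spindle assembly and cytokinesis, 2 of 7 were lower and all 7 were below 0. DLGAP5, which bundles kinetochore fibres, was at 150 and 144 CPM in the control and 127 and 130 CPM in the libraries labelled SAE2 kd. Its log2 fold change was -0.19 ± 0.054 (SE; edgeR adjusted p = 0.0202). ANLN (anillin), which organises the cleavage furrow, was at 354 and 308 CPM against 287 and 298 CPM, with a log2 fold change of -0.18 ± 0.053 (SE; edgeR adjusted p = 0.0269). Its controls lay further apart than those of DLGAP5, and without control replicate 1 its value was -0.07. The other 5 ranged from -0.13 in HMMR to -0.03 in NUSAP1, with TPX2, an activator of AURKA, at -0.07.

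MKI67, the Ki-67 protein that coats mitotic chromosomes, was the most abundant of the 42 by counts. It was at 1419 and 1356 CPM in the control and 1299 and 1217 CPM in the libraries labelled SAE2 kd. It fell by 9.32%, a log2 fold change of -0.14 ± 0.041 (SE; edgeR adjusted p = 0.0238). TOP2A, the topoisomerase that untangles chromosomes, was at -0.10 without passing. FOXM1, the transcription factor of the group, was at 203 and 210 CPM in the control and 201 and 189 CPM, a log2 fold change of -0.09 ± 0.051 (SE; edgeR adjusted p = 0.335). The FOXM1 groups did not overlap, but lay close together.

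After TFAP2C siRNA, 0 of the 42 mitotic genes passed the test of edgeR, and 0 passed the Wald test of DESeq2. The background was also low, with 0.26% of all 14991 genes higher and 0.48% lower by edgeR, and 0.327% and 0.38% by DESeq2. The log2 fold changes were split, with 24 above 0 and 18 below, where 50.9% of all genes were below 0. Their median was 0.02, against -0.0038 over all genes. At an unadjusted p under 0.05, 5 genes were higher and 2 lower, against 5.68% and 6.92% of all genes. The 5 were AURKA (0.23), CDC20 (0.23), FOXM1 (0.23), TPX2 (0.21) and BIRC5 (0.18), and the 2 were KIF18A (-0.55) and CDC25B (-0.19), all on the log2 scale. In 11 genes both TFAP2C siRNA libraries lay above both controls and in 4 below, against 22.4% of all genes in each direction. A missing call does not show equal levels. The SE had a median of 0.088, against 0.054 in the SAE2 experiment, and the 95% confidence interval of PTTG1, for example, ran from -0.11 to 0.23.

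**Figure D4:**
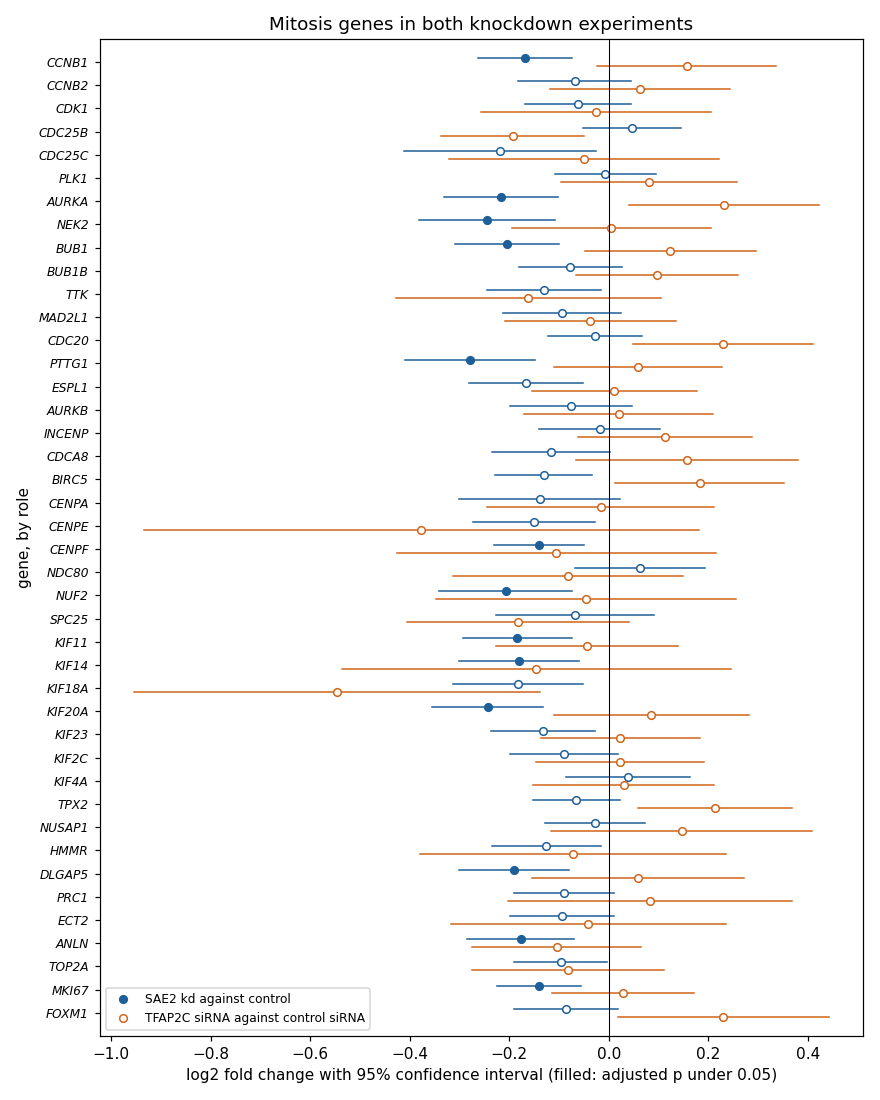
Log2 fold change (x axis) of each of the 42 mitotic genes (y axis, in order of role) with its 95% confidence interval, for SAE2 kd against control (blue) and TFAP2C siRNA against control siRNA (orange). Filled points have an adjusted p under 0.05: 13 blue points, all left of 0, and 0 orange points. The orange intervals are wider, most of all in KIF18A and CENPE.

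The 2 TFAP2C siRNA libraries differed from each other in many of these genes. KIF18A was at 52.2 and 49.1 CPM with control siRNA and at 24.8 and 44.8 CPM with TFAP2C siRNA. Both treated libraries were below both controls, but replicate 1 was far lower than replicate 2, and the log2 fold change of -0.55 had an SE of 0.19. CENPE was at 24.8 and 18.6 CPM with control siRNA and at 10.5 and 23.2 CPM with TFAP2C siRNA, so that the 2 treated libraries lay below and between the controls. FOXM1 was at 78.4 and 74.7 CPM against 99.7 and 79.8 CPM, and CDC20 at 120.2 and 121 CPM against 153 and 129 CPM. In both of these replicate 1 was the higher library.

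Over the 42 genes, the log2 difference between TFAP2C siRNA replicates 1 and 2 ranged from -1.11 to 0.34. It followed the GC content of the transcripts, with a Spearman rho of 0.84 across the 42 genes, against 0.51 across 13155 genes. For the control siRNA replicates rho was -0.54 across the 42 genes, against -0.37 across the 13155. For the log2 fold change rho was 0.57, against 0.17. The genes share the same 4 libraries, so they are no independent points and no p is given. In the SAE2 experiment the difference between the replicates labelled SAE2 kd spanned -0.19 to 0.14. Its rho was 0.68, against 0.45 across 12342 genes. For the log2 fold change rho was 0.29, against -0.02 across the 12342 genes. The part of GC content in the results was not tested beyond a fit with the trend removed. In that fit 3 mitotic genes passed after TFAP2C siRNA, namely CDC25B (-0.22), KIF18A (-0.48) and TPX2 (0.20), where 2.15% of all genes were higher and 2.57% lower. In the SAE2 experiment 20 passed, all lower and the 13 among them, where 7.4% of all genes were lower and 9.02% higher.

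**Figure D5:**
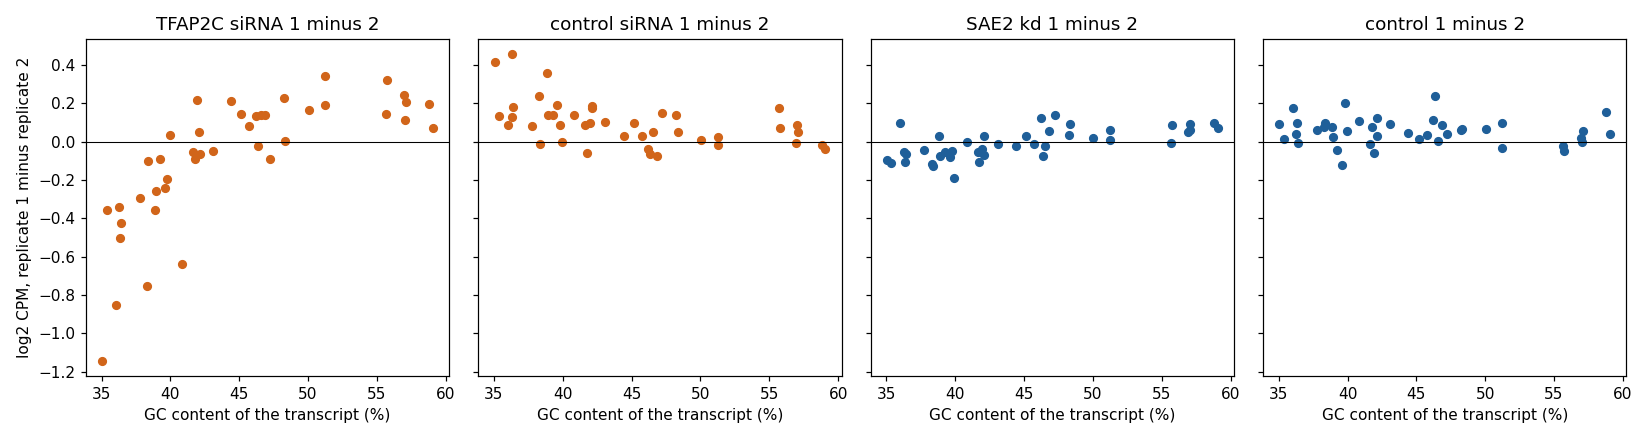
Log2 CPM of replicate 1 minus replicate 2 (y axis) of the 42 mitotic genes against the GC content of the transcript (x axis, percent), for TFAP2C siRNA, control siRNA, SAE2 kd and control. TFAP2C siRNA shows the widest spread, with genes poor in GC far below 0 (Spearman rho 0.84), and the other 3 pairs stay closer to 0.

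Leaving out a library changed the picture after TFAP2C siRNA. Without TFAP2C siRNA replicate 2, 20 mitotic genes passed, but so did 18.2% of all genes. Without replicate 1 CDC25B alone passed, against 3.49% of all genes. Without control siRNA replicate 2, KIF18A passed, against 0.478%, and without control siRNA replicate 1, 0 did, against 0.32%. In a fit of all 8 libraries 0 passed, against 2.06%.

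Whether the genes responded differently to the 2 treatments was tested in 1 fit of all 8 libraries over 13179 shared genes, as the change after TFAP2C siRNA minus the change in the libraries labelled SAE2 kd. Of all genes, 0.903% were above 0 and 1.47% below at an adjusted p under 0.05. Of the mitotic genes AURKA passed, with a difference of 0.43 ± 0.10 (SE; edgeR adjusted p = 0.0328). AURKA was at 46.7 and 45.8 CPM with control siRNA and at 58.2 and 50.3 CPM with TFAP2C siRNA, against the fall in the libraries labelled SAE2 kd given above. For the other 41 genes, the 12 others among the 13 included, the changes in the 2 experiments were not shown to differ. The nearest were PTTG1 (0.32, adjusted p = 0.0882 in edgeR) and BIRC5 (0.30, adjusted p = 0.106 in edgeR). In all, 35 differences were above 0 and 7 below, with a median of 0.12. An unadjusted p under 0.05 was reached by 11, all above 0 except that of CDC25B (-0.25). At that threshold 6.54% of all genes were above 0 and 7.6% below. The call of AURKA was kept without either TFAP2C siRNA library, and lost without any 1 of the other 6 libraries, where its adjusted p reached 0.155 in edgeR.

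The baseline of the mitotic genes differed between the experiments. Together they took 3750 to 3931 CPM in the siRNA libraries, 8570 and 8880 CPM in the control of the SAE2 experiment, and 8083 and 8053 CPM in the libraries labelled SAE2 kd. The ratio of the DMSO control to the control siRNA had a median of 2.49 over the 42 genes, against 1.06 over 11588 shared genes, and 41 of the 42 were higher in the former. The exception was CDC25B, at 461 CPM with control siRNA and 252 CPM in the DMSO control. PRC1, which bundles midzone microtubules, was at 6.24 to 7.09 CPM in the siRNA libraries and at 246 to 275 CPM in the others. NUSAP1, a microtubule-binding spindle protein, was at 8.20 to 9.93 CPM and at 217 to 226 CPM. PRC1 shares its strand and place with another gene, AC068831.7, in the table of the TFAP2C experiment. The tables were counted separately on different gene models, so treatment and counting cannot be told apart here. Per kilobase of the gene model, the control means ran from 7.76 CPM in CDC25C to 183 CPM in CDC20 within the SAE2 experiment.

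Of 74 other genes of mitosis, outside the 42, 9 were lower and 1 was higher in the libraries labelled SAE2 kd. That is 12.2% and 1.35%, against 4.47% and 5.52% of all genes. This list too was chosen with earlier results of these data known, so the shares are not an independent test. The 74 had a median log2 fold change of -0.06, and 55 were below 0, against 50.1% of all genes. The largest falls were in CENPI (-0.33), a centromere protein, and CKS2 (-0.19), a small partner of CDK1. SKA1, which couples kinetochores to microtubules, rose by 0.34 on the log2 scale, from 53.6 and 54.9 CPM to 66.9 and 70.2 CPM (edgeR adjusted p = 0.00039). CCNA2, the cyclin of S and G2 phase, was at -0.11 and did not pass. After TFAP2C siRNA 0 of the 74 passed in either direction, with a median of 0.04 and CCNA2 at 0.07.

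The larger machines of chromosome segregation showed few calls in the libraries labelled SAE2 kd, where 4.47% of all genes were lower and 5.52% higher. Of 15 APC/C genes tested 0 were lower and ANAPC11, its RING subunit, was higher (0.26). Of 8 condensin genes SMC4 was lower (-0.15), and of 13 cohesin genes 0 passed in either direction. Of 15 MuvB, DREAM and NF-Y genes, which control transcription of the mitotic genes, 0 passed, and MYBL2 was at -0.05. After TFAP2C siRNA 0 genes of these 4 lists passed, and MYBL2 was at -0.04.

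Genes of DNA replication, which act before mitosis, had a median of -0.02 in the libraries labelled SAE2 kd. Of 32, 1 was lower and 1 higher, or 3.1% in each direction, against 4.47% and 5.52% of all genes. MCM4, a subunit of the replicative helicase, was lower (-0.14). CCNE1, the cyclin E that starts S phase, was higher (0.26), at 56.6 and 61.2 CPM in the control and 71.7 and 69.0 CPM in the libraries labelled SAE2 kd. After TFAP2C siRNA the median was 0.03 and 0 of 32 passed.

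Among 10 genes that hold back entry into mitosis, 3 were higher after TFAP2C siRNA and 0 lower, where 0.26% of all genes were higher. Of the 10, 5 were above 0 and 5 below. This list was chosen with earlier results of these data known, so the share is not an independent test. CDKN1A, the p21 inhibitor of cyclin-dependent kinases, was at 444 and 472 CPM with control siRNA and 744 and 675 CPM with TFAP2C siRNA, a log2 fold change of 0.63 ± 0.073 (SE; edgeR adjusted p = 0.0017). SFN, the 14-3-3 sigma protein that holds CDK1 in the cytoplasm, rose by 0.55, and BTG2, an antiproliferative target of p53, by 0.36. In the same libraries 0 of the 42 mitotic genes passed. In the libraries labelled SAE2 kd 0 of the 10 passed, with CDKN1A at 0.09 ± 0.058 (SE). WEE1, the kinase that inhibits CDK1, was at -0.04 after TFAP2C siRNA and 0.01 in the libraries labelled SAE2 kd.

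Of the 5 colon epithelial markers, 3 were higher in the libraries labelled SAE2 kd, where 5.52% of all genes were higher. These were KRT18 (0.25), KRT8 (0.18) and EPCAM (0.15), and all 5 were above 0. Their summed level was 2132 and 2148 CPM in the control and 2388 to 2480 CPM in the libraries labelled SAE2 kd. After TFAP2C siRNA 0 of the 5 passed, with a median of 0.12 against 0.15 in the libraries labelled SAE2 kd. Their summed level there was 2782 and 2891 CPM with control siRNA and 3111 to 3380 CPM with TFAP2C siRNA. Their part in the results was not tested.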

How the data were processed

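mRNA was sequenced from 8 libraries, 2 for each of 4 groups taken from the labels. Single-end reads were mapped by the authors using TopHat2 and counted by HTSeq 0.9.1, a version named in the submitters' processing notes. The authors describe counting on RefSeq genes. They deposited raw counts per gene, without normalization, in a table for each experiment. The notes name hg19, whereas gene positions in the TFAP2C table are those of GRCh38, with Ensembl gene types. The gene set of that table is thus not the RefSeq set described. The tables were therefore fitted separately.

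The filterByExpr filter and TMM scaling of edgeR 4.0.16 were applied in R 4.3.3. Each treatment was compared with its control by the two-sided quasi-likelihood test, with Benjamini-Hochberg adjustment over all genes tested. Replicates varied by a biological coefficient of variation of 6.28% (TFAP2C) and 3.56% (SAE2). CPM are on TMM-scaled library sizes, and SE derive from the F statistic. The replicates may be technical, so p-values measure the spread between these libraries, and an exact test of 2 against 2 libraries cannot give a p below 0.333. The difference was fitted over genes shared by both tables. Alternatives included DESeq2 1.42.0, other filters and scalings, a replicate block and leaving out each library. A spline of GC content with 5 degrees of freedom and a crossed block were chosen after seeing the data. GC content came from GENCODE transcripts on GRCh37, which gave 87.8% and 92.2% of the tested genes a value, and the others stayed out of that fit. The code was tested on simulated data with larger changes than those of the mitotic genes called lower in the SAE2 experiment. Recovery of changes as small as theirs was not tested.

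The mitotic genes and the other lists, written from general knowledge, were chosen with earlier results of these data known. Mitotic genes that passed a test are given with each library's value, as is the one with the largest change in roles where none passed. Of the other lists, up to 2 rises and 2 falls are named, plus CDKN1A, WEE1, MYBL2 and CCNA2. CENPE, CDC20 and the other genes named with values outside this rule were chosen after their values were seen.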

Additional observations from a re-analysis of the deposited data

Results flagged for a closer look

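AURKA was the mitotic gene whose response differed between the experiments by a test of the difference itself. Its change after TFAP2C siRNA minus its change in the libraries labelled SAE2 kd was 0.43 on the log2 scale (SE 0.10, edgeR adjusted p = 0.0328), from changes of 0.23 and -0.22. Both TFAP2C siRNA libraries were above both of their controls, and both libraries labelled SAE2 kd were below theirs. The call was lost with the replicate block and without any 1 of 6 libraries.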

How the results depend on the processing

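In the SAE2 experiment, 13 mitotic genes and 1336 genes in all passed. The Wald test of DESeq2 gave 5 and 641, 1 fit of all 8 libraries gave 1 and 696, and removing the GC trend gave 20 and 2026. Leaving out 1 library gave 2 to 11 mitotic genes, 833 to 1271 genes in all and a median of -0.14 to -0.0899. Of the 42 log2 fold changes, 3 were above 0, and 2 to 5 were when 1 library was left out. The 13 that passed, with BIRC5 and FOXM1, were the 15 mitotic genes followed through the alternatives. In this experiment these 15 stayed below 0 under all 12 alternatives. PLK1, also given above in every library, was not among the 15. After TFAP2C siRNA, 0 mitotic genes and 111 genes in all passed. Without the filter these were 2 and 398, with the GC trend removed 3 and 621, and in 1 fit of all 8 libraries 0 and 271. Leaving out 1 library gave 0 to 20 and 49 to 2825. For the difference 1 mitotic gene passed, against 8 without the filter, 9 with the GC trend removed and 0 to 15 without 1 library. The causes were not tested.

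The deviations of same-numbered replicates had correlations of -0.14 in the TFAP2C and 0.07 in the SAE2 experiment. With 2 libraries a group, this cannot settle whether the numbers pair the libraries. With a replicate block, 1 mitotic gene and 172 genes passed after TFAP2C siRNA, 11 mitotic genes in the libraries labelled SAE2 kd and 0 for the difference. The differences of CENPF and KIF14 then became -0.00956 and -0.0105. With the pairing crossed after TFAP2C siRNA, 2 mitotic genes and 467 genes passed.

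Further changes of sign are given for these 15 genes only, and others of the 42 changed sign too. With library size only, 18 of the 42 were above 0 after TFAP2C siRNA, against 24. Among the 15, none of the values that changed sign had passed with all libraries in. After TFAP2C siRNA, NEK2 went from 0.01 to -0.0231 with library size only and to -0.0048 with all 8 libraries, MKI67 from 0.03 to -0.00038 with library size only, and KIF11 from -0.04 to 0.0012 without the GC trend. Leaving out 1 library gave ranges of -0.0372 to 0.052 for NEK2, -0.00693 to 0.0548 for MKI67, -0.121 to 0.0286 for KIF11, -0.23 to 0.15 for NUF2, -0.46 to 0.18 for CENPF, -0.57 to 0.18 for KIF14, -0.0328 to 0.195 for KIF20A and -0.0937 to 0.20 for DLGAP5. For the difference they were -0.34 to 0.33 for CENPF, -0.41 to 0.37 for KIF14, -0.052 to 0.35 for NUF2 and -0.0505 to 0.17 for ANLN, and those of CENPF and KIF14 passed in opposite directions, above 0 without TFAP2C siRNA replicate 1 (edgeR adjusted p = 0.00779 and 0.0482) and below 0 without replicate 2 (0.00468 and 0.0204). The lone library of a group is assumed in these fits to vary like the others. With 2 libraries a group, changes of the size seen here rest on the model's shared estimate of spread.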
